A study of Mus musculus with 35 samples.

Results

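The semaphorin, ephrin, Slit and netrin families of guidance molecules and their receptors were examined in bulk RNA-seq of the mouse epiblast and of cultured epiblast stem cells. The genes were matched by a symbol rule that used no measured value, and 68 of the 54446 genes in the expression table matched. The families were chosen with earlier results of these data known. They were 20 semaphorins, 9 plexins, 2 neuropilins, 5 ephrin-A ligands, 3 ephrin-B ligands, 9 EphA receptors, 5 EphB receptors, 3 Slit ligands, 4 Robo receptors, 3 netrins and 5 netrin receptors of the Unc5 and Dcc group. Of the 68 genes, 65 are autosomal and 3 (Efnb1, Plxna3 and Plxnb3) are on the X chromosome.

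These families were first described for steering growing axons, and they also act between epithelial and mesenchymal cells. Semaphorins signal through plexins, and most class 3 semaphorins need a neuropilin as co-receptor. Ephrins are held on the membrane, and they signal on contact to Eph receptors and can signal back into the cell that carries them. Slits are secreted ligands of Robo receptors, and netrins bind Dcc and Unc5 receptors. In the embryo, Eph and ephrin signalling is known for keeping groups of cells apart at tissue boundaries, and semaphorins and netrins for roles in vessels and branching epithelia.

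The 15 in vivo libraries, 3 per stage, came from untreated wild-type embryos of strain CD-1 or of matings with Pdgfra:H2B-GFP reporter mice. They held the inner cell mass (ICM) at E3.5 and the epiblast at daily steps from E4.5 to E7.5. Material was pooled from 10 embryos per library at E3.5 and E4.5 and from 3 to 5 at E5.5 to E7.5. The E3.5 ICM was cut out by laser, the E4.5 epiblast was hand-picked as cells without GFP, and the later epiblasts were freed by hand of visceral endoderm and extraembryonic ectoderm, at E7.5 also of the allantois. The 12 in vitro libraries, 3 per culture, were wild-type. ESC-derived and embryo-derived 3D epiblast stem cells (EpiSCs) grew in 3D Matrigel with FGF2, Activin-A, the tankyrase inhibitor XAV939 and the BMP antagonist Noggin, 2D EpiSCs had been converted from embryonic stem cells (ESCs) with FGF2 and Activin-A, and epiblast-like cells (EpiLCs) were ESCs kept in FGF2 and Activin-A for 48 h. Medium and dimension therefore changed together between 3D and 2D EpiSCs, and for embryo-derived 3D EpiSCs the origin changed with them. The 3D cultures were compared with each other by origin. Any difference in genetic background between ESC-derived and embryo-derived cells cannot be told apart from origin.

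Values are TPM, transcript abundances scaled for gene length and to a fixed total per library, so the depth behind a value is unknown and a lower level can mean fewer cells of a type or less RNA per cell, which cannot be told apart in bulk samples. Library chemistry differed between the in vivo libraries (total RNA, 13 cycles of amplification) and the in vitro libraries (poly-A capture, 8 cycles), so those sets were never tested against each other. Within the embryo set, RNA was fragmented for 6 min at 85 °C at E3.5 and E4.5 and for 4 min at 94 °C from E5.5, which cannot be told apart from the step between E4.5 and E5.5. Markers of other tissues were present. The 10 trophectoderm markers summed to 3292 to 3348 TPM at E3.5 and 2869 to 3043 at E4.5, and all 13 endoderm markers exceeded 2 TPM on average from E5.5 to E7.5, summing to 1139 to 1844 TPM with Apoa1 at 346 to 574. In vitro, ESC-derived replicates 1 and 2, embryo-derived replicates 2 and 3 and 2D replicates 1 and 2 were nearly alike, with a median absolute log2 difference between genes of 0.0567 to 0.0659 against 0.106 to 0.258 in all other replicate pairs.

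The breadth of expression changed with stage. At E3.5, 30 of the 68 genes (44.1%) had a mean above 2 TPM, close to the 47.8% of all protein-coding genes, and at E4.5 the number was 26 (38.2% against 47.0%). At E5.5 it was 41 (60.3% against 48.8%), at E6.5 40 (58.8% against 48.2%) and at E7.5 50 (73.5% against 52.0%). The summed TPM of the 68 genes lay between 504 and 524 in the E3.5 libraries, 380.5 and 426 at E4.5, 655 and 685 at E5.5, 583 and 698 at E6.5, and 988 and 1012 at E7.5. The E5.5 and E6.5 ranges overlapped, and no other neighbouring stages did. Of the 51 genes that ever exceeded a mean of 2 TPM in vivo, 29 had their highest stage mean at E7.5, 7 at E3.5, 4 at E4.5, 6 at E5.5 and 5 at E6.5. The other 17 never had a stage mean above 2 TPM, among them Dcc, Slit1, Plxna4, Sema3c and Epha3.

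**Figure D1:**
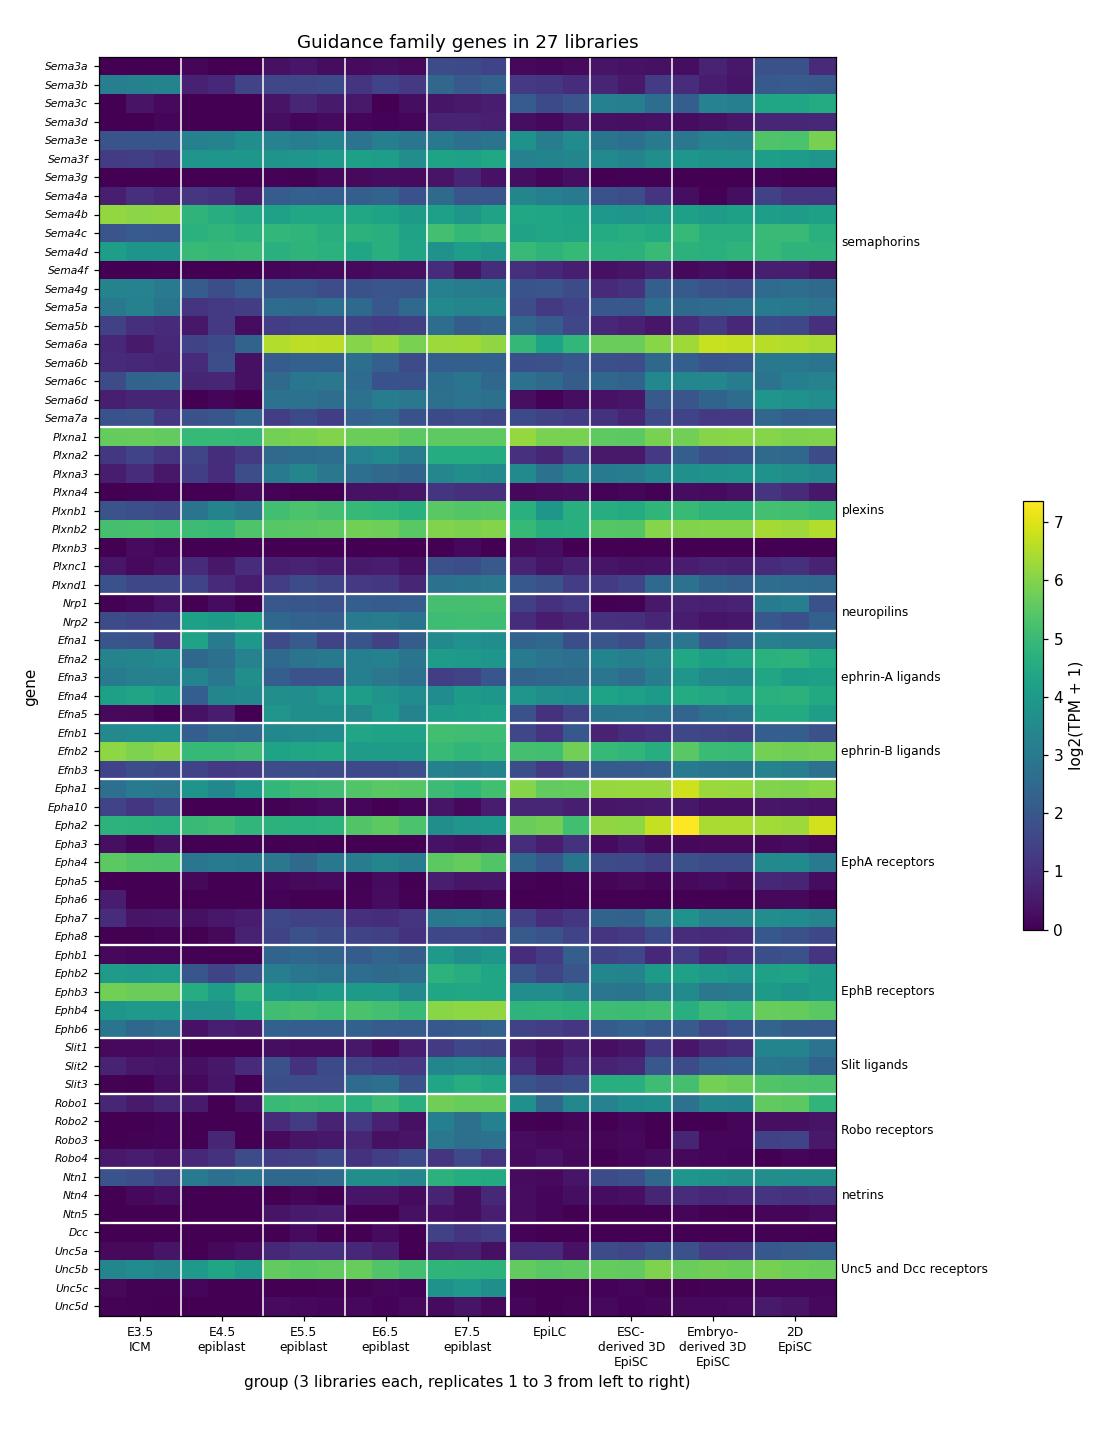
Heat map of log2(TPM + 1) for the 68 guidance family genes (rows, grouped by family) in all 27 libraries (columns, 3 per group, with the thick line between the in vivo and the in vitro set). Sema6a, Robo1 and Efna5 are dark at E3.5 and E4.5 and bright from E5.5, and Unc5c, Robo2 and Robo3 are bright at E7.5 alone among the in vivo stages.

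Tests were run with limma on log2(TPM + 1) across all autosomal protein-coding genes with TPM above 2 in at least 3 libraries of the set. Calls needed a p below 0.05 after Benjamini-Hochberg adjustment and a log2 difference larger than 1 in size. In vivo 49 of the 65 autosomal members passed that filter and in vitro 47. A member seen at a single stage passes only through that stage, so the counts below describe the genes that passed and not the families as a whole. Differences on this scale understate the change of genes at low TPM. Nothing in the labels ties the replicates to separate litters or cultures, so p-values measure the spread between these libraries.

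Between the E3.5 ICM and the E4.5 epiblast, 9 of the 49 tested genes were called higher and 11 lower, beside 5.88% and 11.9% of all 11880 tested genes. The median difference was -0.02 for the members and -0.10 for all genes. Calls went both ways among the semaphorins (5 of 15 tested higher and 5 lower) and the ephrin-A ligands (1 and 1 of 5), and 1 way in the other families with calls. Among ligands, the class 4 semaphorins changed places. Sema4b, a membrane-bound semaphorin, measured 71.9, 67.5 and 69.5 TPM in the ICM and 26.7, 23.2 and 20.9 TPM in the epiblast (log2 difference -1.53 ± 0.12 SE, adjusted p = 2.24e-07). Sema4c, a ligand of Plxnb2, measured 2.88, 3.37 and 3.17 TPM in the ICM and 25.2, 27.3 and 25.4 TPM at E4.5 (2.71 ± 0.12, adjusted p = 6.83e-10). The libraries did not overlap for either gene. The secreted Sema3f went from a mean of 1.45 ± 0.141 (SD, n = 3) to 13.7 ± 0.304 TPM, together with its co-receptor Nrp2, from 2.10 ± 0.122 to 17.0 ± 1.89 TPM (2.53 ± 0.10 SE, adjusted p = 1.58e-10). The log2 difference of Sema3f was 2.59 ± 0.13 SE (adjusted p = 1.25e-09). Sema3e, a ligand of Plxnd1, went from a mean of 2.78 to 9.49 TPM (1.46 ± 0.12, adjusted p = 2.16e-07). Sema4d, a ligand of Plxnb1, was called higher at 1.04, a call lost without E3.5 replicate 2 or 3, and Plxnb1 itself went from 2.42 to 7.26 TPM (1.26 ± 0.12, adjusted p = 1.21e-06). Sema3b fell from 8.47 to 1.10 TPM (-2.22 ± 0.18, adjusted p = 1.86e-07) and Sema5a from 7.15 to 1.36 TPM (-1.78 ± 0.14, adjusted p = 1.72e-07), and Sema6c and Sema4g were also called lower (-1.51 and -1.19).

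Of the 5 tested EphB receptors 3 were called lower at the same step, and of the 5 tested EphA receptors 1. Epha4, which binds ligands of both ephrin classes, measured 44.9, 40.1 and 39.5 TPM in the ICM and 6.46, 7.33 and 6.88 TPM at E4.5 (-2.43 ± 0.12, adjusted p = 1.35e-09). The receptors Ephb2 (15.5 to 2.51 TPM, -2.25 ± 0.14, adjusted p = 1.27e-08), Ephb6 (5.38 to 0.432 TPM, -2.15 ± 0.12, adjusted p = 4.54e-09) and Ephb3 (52.5 to 22.1 TPM) were called lower with it. Epha1 was higher without reaching the size threshold, at means of 6.36 and 12.6 TPM (0.88 ± 0.14, adjusted p = 9.87e-05), as was Epha2 at 25.4 and 30.3 TPM (0.24 ± 0.09, adjusted p = 0.0443). The ephrin-B ligand Efnb2 had means of 65.6 ± 3.88 and 30.5 ± 1.28 TPM (-1.08 ± 0.07 SE, adjusted p = 4.09e-08), and this call was lost, at -0.97, when TPM were rescaled by median-of-ratios factors. The X-linked Efnb1 differed by -1.13 ± 0.09 in a fit with the sex chromosomes. The ephrin-A ligands parted ways, Efna1 called higher (2.28 ± 0.947 to 13.1 ± 5.28 TPM, 2.07 ± 0.30 SE, adjusted p = 5.19e-05) and Efna4 called lower (17.4 ± 1.41 to 7.64 ± 3.51 TPM). The Efna4 call rested on E4.5 replicate 1, at 3.59 TPM against 9.47 and 9.85 in the other two, and without it the difference was -0.79. Ntn1, the main netrin, was called higher (1.18 ± 0.12, adjusted p = 2.67e-06), and Sema6a too (0.670 to 2.7 TPM, 1.11 ± 0.17, adjusted p = 0.000123), though not without E4.5 replicate 3. Of the other well-known members, Plxna1 differed by -0.69 ± 0.08 (adjusted p = 5.18e-06), Sema7a by 0.44, Robo1 by -0.40, Nrp1 by -0.09, Plxnb2 by -0.06 and Slit2 by 0.01, none of them called. The 13 endoderm markers also differed at this step, with a sum of 795 to 823 TPM in the ICM and 452 to 491 TPM in the E4.5 epiblast. They did not move as one, since mean Gata6 went from 118 to 8.64 TPM and Pdgfra from 114 to 3.23 TPM while Cubn went from 48.7 to 91.9 TPM and Rhox5 from 39.5 to 128 TPM. Their part in the result was not tested.

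The step to E5.5 brought 20 members up and 3 down, beside 14.9% and 9.47% of all tested genes, with a median difference of 0.70 for the members and 0.16 for all genes. Rescaling shifted the median of all genes to 0.03 and left 18 members higher and 3 lower. The leading genes went from close to 0 to well-expressed. Sema6a, a transmembrane semaphorin that signals through class A plexins, measured 1.85, 2.17 and 4.07 TPM at E4.5 and 90.7, 99.0 and 97.3 TPM at E5.5 (4.75 ± 0.17, adjusted p = 4.41e-11), which made it the most abundant member at E5.5. Robo1, a Slit receptor at chr16:72308306-73046095 (mm10, as all coordinates here), was listed at 0.452, 0 and 0.270 TPM at E4.5 and measured 30.2, 32.5 and 30.7 TPM at E5.5 (4.71 ± 0.14, adjusted p = 5.52e-12). At E6.5 Robo1 lay between 24.5 and 32.2 TPM and Sema6a between 58.7 and 74.3 TPM, and neither difference from E5.5 was called. Efna5, a GPI-anchored ligand of EphA receptors at chr17:62604184-62881317, was listed at 0.271, 0.479 and 0 TPM and then measured 13.3, 11.8 and 11.7 TPM (3.42 ± 0.16, adjusted p = 5.35e-10). Sema6d, of the same class as Sema6a, rose from at most 0.076 TPM to 5.72, 5.75 and 5.15 TPM (2.67 ± 0.09, adjusted p = 1.63e-11). For each of these 4 genes the E4.5 and E5.5 libraries lay far apart.

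Of the 20 genes, 12 were receptors. Receptors also made up much of the tested set, with 6 plexins, 2 neuropilins, 5 EphA, 5 EphB, 4 Robo and 2 Unc5 and Dcc receptors. Of the 5 EphB receptors, 4 were called higher, Ephb1 the most (0.0107 ± 0.0185 to 4.29 ± 0.211 TPM, 2.39 ± 0.10 SE, adjusted p = 1.06e-10), followed by Ephb6, Ephb4 and Ephb2. Of the 5 tested EphA receptors, Epha8, Epha1 and Epha7 were called higher, the last at 1.04, a call lost after rescaling and without E4.5 replicate 1 or E5.5 replicate 1. Epha8 had its highest stage mean at E5.5, at 2.24 TPM, and passed the filter in 9 of 13 alternatives only. That it was called higher may therefore follow in part from the filter. Plxnb1, the Sema4d receptor, had means of 7.26 ± 1.46 and 35.7 ± 2.28 TPM (2.16 ± 0.12 SE, adjusted p = 3.44e-09), and Plxna2 and the X-linked Plxna3 were higher by 1.36 and 1.76. Nrp1 rose from at most 0.177 TPM to 2.98, 2.96 and 2.7 TPM (1.88 ± 0.09, adjusted p = 9.46e-10). Its paralogue Nrp2 moved the other way, from 16.8, 15.2 and 18.9 TPM to 4.55, 3.99 and 3.79 TPM (-1.81 ± 0.10, adjusted p = 2.80e-09). The dependence receptor Unc5b had means of 16.8 ± 2.52 and 46.4 ± 1.10 TPM (1.42 ± 0.13 SE, adjusted p = 3.39e-07). Efna1 (13.1 to 2.51 TPM, -1.95 ± 0.30, adjusted p = 6.46e-05) and Efna3 (8.93 to 3.00 TPM, -1.29 ± 0.20, adjusted p = 6.70e-05) were called lower with Nrp2. Plxna1, a co-receptor for class 3 semaphorins, was higher by 0.97 ± 0.08 (adjusted p = 1.27e-07), just short of the size threshold, and so was Slit2 at 0.96 ± 0.18 (adjusted p = 0.000486). Efnb2 differed by -0.63, Sema7a by -0.61, Ntn1 by -0.35, Epha2 by -0.23, Epha4 by -0.18 and Plxnb2 by 0.35, none of them called, and the X-linked Efnb1 was higher by 1.11 ± 0.09 (adjusted p = 1.98e-07). At this step the summed trophectoderm markers went from 2869 to 3043 down to 350.4 to 386 TPM, and the endoderm markers from 452 to 491 up to 1139 to 1187 TPM, with Afp at 0 in all E4.5 libraries. Their part in the result was not tested.

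**Figure D2:**
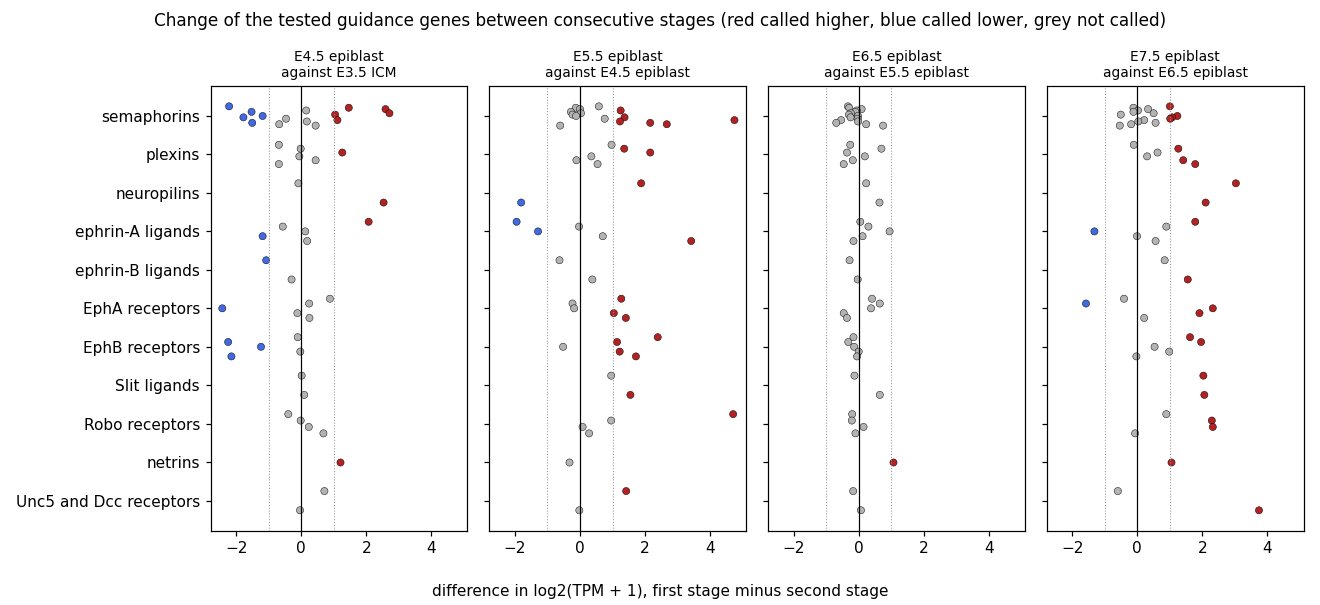
Difference in log2(TPM + 1) between consecutive stages for the 49 tested autosomal guidance genes, 1 point per gene, by family (rows). Red points were called higher in the later stage, blue points lower, grey points were not called and the dotted lines mark the size threshold of 1. The E5.5 and E7.5 steps hold 20 and 21 red points, the E6.5 step 1.

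Between E5.5 and E6.5 a single member, Ntn1, was called higher, beside 0.715% of all tested genes, and limma called 0 members lower, beside 0.48%. At an unadjusted limma p below 0.05, 11 members were higher and 11 lower. The median difference was -0.06 for both the members and all genes. Ntn1, the diffusible netrin ligand at chr11:68209364-68400823, measured 4.56, 4.66 and 5.01 TPM at E5.5 and 11.8, 11.8 and 9.68 TPM at E6.5 (1.07 ± 0.12, adjusted p = 0.000142). The libraries did not overlap, and the call held in every alternative run for it. Epha2 (25.6 ± 0.594 to 40.9 ± 3.29 TPM) and Efnb1 (10.5 ± 0.629 to 18.7 ± 0.474 TPM) were higher by 0.65 and 0.78, under the size threshold. Nrp2, Sema7a, Epha4, Nrp1, Plxnb2 and Efna1 differed by 0.64, 0.75, 0.38, 0.23, 0.19 and 0.05, and Sema6a, Plxnb1, Efnb2, Plxna1, Robo1 and Slit2 by -0.54, -0.36, -0.28, -0.26, -0.20 and -0.13, none of them called. Efna3 measured 3.61, 2.67 and 2.73 TPM at E5.5 and 8.12, 6.57 and 5.53 TPM at E6.5, and was the member that joined Ntn1 under a pseudocount of 0.1 and after rescaling.

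At E7.5, 21 members were called higher than at E6.5 and 2 lower, beside 10.6% and 1.94% of all tested genes. The median difference was 0.84 for the members and 0.31 for all genes, which rescaling moved to 0.54 and 0.01. After rescaling 15 members were higher and 2 lower, beside 5.98% and 3.26% of genes, and calls higher made up 64.7% of all calls in place of 84.6%. The 6 members lost were Plxna2, Ntn1, Sema5a, Sema5b, Sema4g and Sema3b. Without E7.5 replicate 1, 14 members were called higher, since Plxnc1, Robo2, Robo3, Sema5b and Unc5c then passed 2 TPM in too few libraries to be tested and Ntn1 and Sema3b missed the size threshold.

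The receptors are described first. Unc5c, Robo2, Robo3, Plxnc1 and Sema5b passed the filter through the 3 E7.5 libraries alone, so their being higher at E7.5 follows in part from the filter and their place among the largest changes is a description. Unc5c, a netrin receptor at chr3:141465216-141834924, was listed at 0.0205, 0.0901 and 0.0552 TPM at E6.5 and measured 12.8, 15 and 11.9 TPM at E7.5 (3.74 ± 0.09, adjusted p = 1.65e-12). Nrp1 measured 3.60, 3.42 and 3.62 TPM at E6.5 and 36.0, 35.8 and 36.6 TPM at E7.5 (3.03 ± 0.09, adjusted p = 2.09e-11), and Nrp2 7.10, 7.69 and 6.08 TPM before and 33.2, 33.4 and 32.7 TPM after (2.10 ± 0.10, adjusted p = 1.83e-09). The neuropilins, opposed at E5.5, thus moved together here, and their summed level was 69.2 to 69.3 TPM in the E7.5 libraries against 9.71 to 11.1 TPM at E6.5. Robo2 was listed at 1.37, 0.590 and 0.268 TPM and then measured 8.03, 5.55 and 8.45 TPM (2.29 ± 0.20, adjusted p = 1.11e-06). Robo3, a divergent member of the Robo family, had means of 0.427 ± 0.255 and 6.06 ± 0.624 TPM (2.32 ± 0.19 SE, adjusted p = 4.44e-07). Robo1 was higher by 0.89 ± 0.14 (adjusted p = 0.00014), at 53.9, 49.5 and 49.2 TPM, and was not called.

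Among Eph receptors the E7.5 step divided the family. Epha4 returned from 7.51, 9.16 and 7.64 TPM to 44.7, 49.0 and 40.1 TPM (2.32 ± 0.12, adjusted p = 3.99e-09), a range that overlapped the 39.5 to 44.9 TPM of the E3.5 ICM. Ephb2 (5.12 to 22.9 TPM), Epha7 (1.06 to 6.74 TPM) and Ephb1 (3.75 to 13.6 TPM) were called higher. Epha2, in contrast, measured 40.7, 44.3 and 37.8 TPM at E6.5 and 11.5, 13.4 and 14.3 TPM at E7.5 (-1.58 ± 0.09, adjusted p = 1.68e-08), its lowest level of all stages. Its ligand Efna1 rose from 2.65 ± 0.928 to 11.3 ± 0.808 TPM (1.78 ± 0.30 SE, adjusted p = 0.000247), and Efna3 fell from 6.74 to 2.11 TPM (-1.32 ± 0.20, adjusted p = 9.59e-05). Plexins higher at E7.5 were Plxnd1, the Sema3e receptor (1.12 to 6.21 TPM), Plxnc1, the Sema7a receptor (0.404 to 2.73 TPM), and Plxna2 (8.96 to 22.7 TPM). Sema7a itself lay between 2.03 and 2.37 TPM at E7.5, with a difference of -0.54 ± 0.21. Plxnb1, Plxnb2, Plxna1 and Sema6a differed by 0.62, 0.30, -0.11 and 0.21 and were not called.

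Secreted ligands of the Slit family followed at the same step. Slit3, at chr11:35121224-35708507, measured 4.92, 5.56 and 2.80 TPM at E6.5 and 19.5, 23.2 and 20.5 TPM at E7.5 (2.06 ± 0.18, adjusted p = 7.33e-07), and Slit2 1.89, 1.59 and 1.35 TPM before and 9.40, 10.1 and 9.33 TPM after (2.03 ± 0.18, adjusted p = 1.32e-06). The groups did not overlap for either ligand. Slit1 reached a mean of 1.77 ± 0.331 TPM and was below the filter. Ntn1 was called higher again (11.8, 11.8 and 9.68 to 25.8, 22.8 and 21.9 TPM, 1.02 ± 0.12, adjusted p = 1.74e-05), though not after rescaling, without E6.5 replicate 3 or without E7.5 replicate 1. The ephrin-B ligand Efnb3 went from 2.24 ± 0.238 to 8.45 ± 0.656 TPM (1.55 ± 0.10 SE), while Efnb2 and the X-linked Efnb1 were higher by 0.84 and 0.81. Tissue markers differed too. The 10 epiblast markers summed to 1205 to 1302 TPM at E6.5 and 372 to 398 at E7.5, the 8 markers of extraembryonic mesoderm and blood to 21.2 to 25.2 and 146 to 153, the 6 neural markers to 31.3 to 33.8 and 75.9 to 79.9, and the 10 trophectoderm markers to 427 to 473 and 866 to 904. Of the last, mean Krt8 went from 169 to 340 TPM, Krt18 from 229 to 402 TPM and Cdx2 from 5.27 to 56.7 TPM. Elf5 went down from 4.79 to 0.224 TPM and Krt7 from 4.82 to 4.15 TPM. The 10 markers of primitive streak and mesoderm summed to 455 to 608 TPM at E6.5 and 262 to 278 TPM at E7.5. Among them mean Eomes went from 160 to 4.10 TPM, Fgf8 from 146 to 23.5 TPM and Mesp1 from 57.3 to 14.1 TPM, while Msgn1 went from 0.0369 to 74.8 TPM and T from 29.8 to 96.5 TPM, and the blood gene Hbb-bh1 was at 0 in every E7.5 library. The part of these tissues in the result was not tested.

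**Figure D3:**
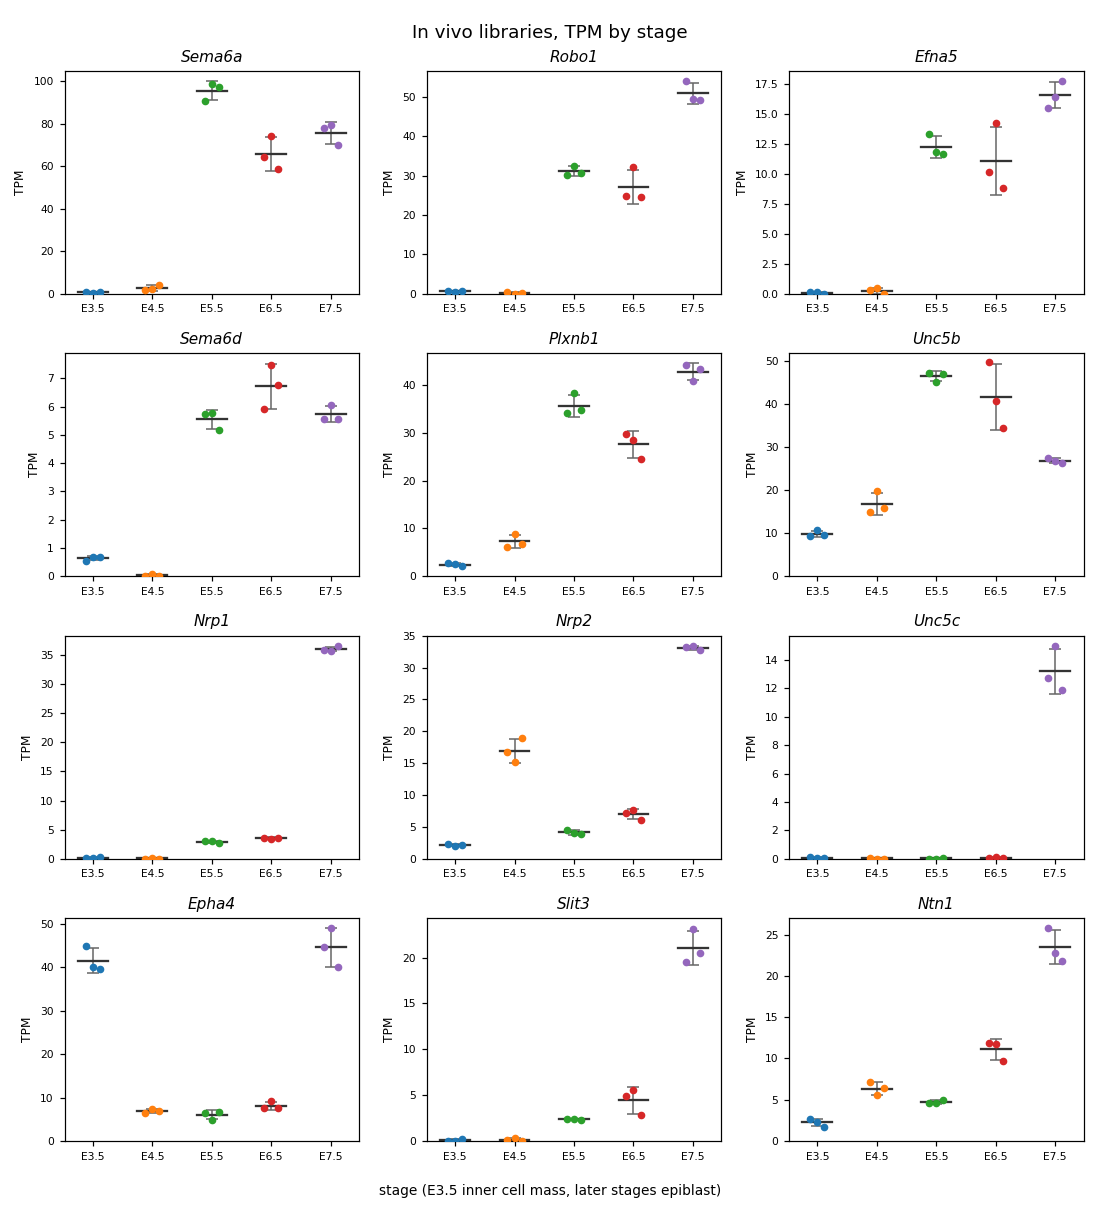
TPM of 12 guidance genes in each in vivo library (points) with the mean (bar) and SD (error bars, n = 3) at 5 stages, each panel with its own axis from 0. Sema6a, Robo1, Efna5 and Sema6d step up at E5.5, Nrp1, Unc5c and Slit3 at E7.5, and Epha4 is high at E3.5 and E7.5 only.

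For the E5.5 and E7.5 steps, the 250 bases before the RefSeq start (GRCm38.p6) are shown for 2 members each. These had the largest increase among called members with a matched window that lay outside the gene as drawn in the table. They show the DNA next to which these changes were measured. Capitals mark GGGCGG or its reverse complement CCGCCC, the core of the GC box. The first pair is from the E5.5 step and the second from the E7.5 step. Neither pair led its step. Sema6a and Robo1 ranked above the first pair, and Unc5c, Nrp1 and Robo3 above the second. Robo2 passed the filter through the E7.5 libraries alone.
Efna5, chr17:62881318-62881567, minus strand: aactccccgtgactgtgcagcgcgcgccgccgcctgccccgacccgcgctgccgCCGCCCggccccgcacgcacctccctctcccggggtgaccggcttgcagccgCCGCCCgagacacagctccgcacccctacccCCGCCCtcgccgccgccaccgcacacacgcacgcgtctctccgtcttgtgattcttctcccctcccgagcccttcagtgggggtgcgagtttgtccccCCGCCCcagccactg
Sema6d, chr2:124089719-124089968, plus strand: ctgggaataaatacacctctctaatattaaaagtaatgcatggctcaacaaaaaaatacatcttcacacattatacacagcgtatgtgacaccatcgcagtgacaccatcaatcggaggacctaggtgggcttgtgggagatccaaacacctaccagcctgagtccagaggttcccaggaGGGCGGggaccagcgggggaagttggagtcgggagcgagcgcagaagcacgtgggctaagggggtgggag
Epha4, chr1:77515089-77515338, minus strand: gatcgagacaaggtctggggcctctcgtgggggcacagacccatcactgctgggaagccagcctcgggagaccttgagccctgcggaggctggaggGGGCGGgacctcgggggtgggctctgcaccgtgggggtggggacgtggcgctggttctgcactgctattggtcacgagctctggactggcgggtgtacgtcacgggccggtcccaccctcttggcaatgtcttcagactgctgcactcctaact
Robo2, chr16:74411826-74412075, minus strand: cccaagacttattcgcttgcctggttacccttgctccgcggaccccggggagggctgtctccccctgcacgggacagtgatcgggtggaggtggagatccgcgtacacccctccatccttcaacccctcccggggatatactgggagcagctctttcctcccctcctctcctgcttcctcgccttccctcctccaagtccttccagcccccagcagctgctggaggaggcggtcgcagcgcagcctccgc
The Efna5 window held 4 GC boxes and 32 CpG, the Sema6d and Epha4 windows 1 GC box each with 9 and 14 CpG, and the Robo2 window 0 with 14 CpG. A window was matched for 58 of the 68 members. Over these the median was 16 CpG and 64.8% GC, against 10 CpG and 56.0% GC over 16469 protein-coding genes, and GGGCGG on either strand was found in 72.4% against 44.5%. TATAAA was found in 3.45% against 11.9% and CCAAT in 27.6% against 36.1%, also on either strand. These matches describe the letters of the windows only.

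Levels of ligands and receptors were set side by side, with no test over pairs. At E5.5 Robo1 had a mean of 31.1 TPM while the 3 Slits summed to 3.62 to 5.19 TPM, and at E7.5 the Slits summed to 30.4 to 35.3 TPM and the 4 Robo receptors to 62.7 to 69.9 TPM. Unc5b made up 97.1% to 99.1% of the summed TPM of the Unc5 and Dcc receptors from E3.5 to E6.5 and 63.6% at E7.5, where Unc5c joined it. Dcc was listed at 0 in all 6 libraries of E3.5 and E4.5 and in 4 of the 6 of E5.5 and E6.5, and measured 1.69, 1.16 and 1.53 TPM at E7.5. Efnb2 supplied 83.7% of the ephrin-B level at E3.5, and Efnb1 47.1% of it at E7.5. Some plexins were present throughout, with Plxna1 between 29.3 and 62.4 TPM and Plxnb2 between 31.0 and 63.5 TPM in every in vivo library.

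Of 36 co-receptors and downstream genes of the same pathways, such as the CRMP proteins that relay semaphorin signals and the srGAPs that act below Robo, 33 could be tested in vivo. At E4.5, 4 were called higher and 8 lower, led by Crmp1 (1.96 ± 0.09) and Dpysl2 (1.46 ± 0.16) in the first direction and by Srgap3 (-1.89 ± 0.16) and the plexin-bound Farp1 (-1.80 ± 0.16) in the second. At E5.5, 11 were called higher, led by Crmp1 (3.69 ± 0.09 SE, adjusted p = 1.05e-12) and Dpysl5 (3.58 ± 0.12, adjusted p = 2.55e-11), and limma called 0 lower, with 3 at an unadjusted p below 0.05. At E6.5 limma called 0 in either direction, with 2 higher and 5 lower at an unadjusted p below 0.05. At E7.5, 11 were called higher, led by Rgma (2.98 ± 0.23), a ligand of neogenin, and Draxin (1.77 ± 0.12), a ligand of Dcc, and 0 lower at either level. Over all tested genes, the shares called higher and lower were 5.88% and 11.9% at E4.5 and 14.9% and 9.47% at E5.5. They were 0.715% and 0.48% at E6.5 and 10.6% and 1.94% at E7.5. The E6.5 shares are so small that 0 calls among 33 genes say little.

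In culture, 2D EpiSCs had the widest set, with 47 of 68 genes above a mean of 2 TPM (69.1% against 52.4% of coding genes). Embryo-derived 3D EpiSCs had 38 (55.9% against 49.9%). ESC-derived 3D EpiSCs (51.5% against 49.3%) and EpiLCs (51.5% against 50.8%) had 35 each, close to the share of all coding genes. The summed TPM of the members was 1073 to 1122 in 2D EpiSCs, 855 to 960 in embryo-derived and 636 to 799 in ESC-derived 3D EpiSCs, and 507 to 606 in EpiLCs. The ESC-derived and EpiLC ranges did not overlap. Against EpiLCs, 2D EpiSCs had 22 of 47 tested members higher and 1 lower, beside 15.2% and 5.14% of 11541 genes (medians 0.96 and 0.18). Rescaling moved the median of all genes to -0.05 and the share of calls that were higher from 74.8% to 61.1%, and left 21 members higher and 1 lower.

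All 3 Slits were higher in 2D EpiSCs than in EpiLCs. Slit3 measured 2.75, 2.27 and 2.49 TPM in EpiLCs and 40.2, 38.5 and 37.1 TPM in 2D EpiSCs (3.5 ± 0.17, adjusted p = 1.96e-08). Ntn1 was listed at 0.156, 0.132 and 0.338 TPM in EpiLCs and measured 11.6, 11.2 and 11.4 TPM in 2D EpiSCs (3.36 ± 0.17, adjusted p = 2.29e-08). Sema6d was higher by 3.53 ± 0.36, with at most 0.225 TPM in EpiLCs and 13.4, 12.4 and 11.3 TPM in 2D EpiSCs. None of these ligands overlapped between the cultures. Efna5 (at most 2.57 TPM against at least 16.6 TPM), Sema3c (2.80 to 20.4 TPM), Epha7, Ephb2 and Robo1 were also called higher, Efna5 with a difference of 2.91 ± 0.18 (adjusted p = 1.69e-07), Sema3c with 2.5 ± 0.26 (adjusted p = 8.16e-06) and Robo1 with 2.10 ± 0.30 (adjusted p = 0.000106). Slit1 (0.402 to 7.98 TPM) and Slit2 (0.678 to 5.62 TPM) differed by 2.66 ± 0.23 and 1.98 ± 0.30, and Sema6a, Plxnb2, Nrp1 and Nrp2 were called higher by 1.82, 1.67, 1.46 and 1.24. Epha2, Efna1, Epha4, Sema7a, Plxnb1, Efnb1, Efnb2 and Plxna1 differed by 0.98, 0.95, 0.90, 0.85, 0.69, 0.51, 0.44 and 0.00 and were not called. Sema4a was the member called lower, at 9.54, 8.13 and 7.26 TPM in EpiLCs and 1.74, 1.20 and 1.18 TPM in 2D EpiSCs (-1.97 ± 0.18, adjusted p = 3.63e-06). The 10 primitive streak markers summed to 19.8 to 32.4 TPM in EpiLCs and 252 to 269.9 TPM in 2D EpiSCs, and the neural markers to 14.5 to 32.3 and 105 to 110.4 TPM. Trophectoderm markers summed to 57.7 to 82.7 and 593 to 752 TPM. Endoderm markers went the other way, at 477 to 649 and 56.9 to 72.6 TPM, with mean Rhox5 at 528 and 2.89 TPM. Fibroblast markers (34.7 to 44.4 and 21.5 to 22.8 TPM) were also lower in 2D EpiSCs. So were markers of extraembryonic mesoderm and blood (12.3 to 14.4 and 8.14 to 9.03 TPM), and the epiblast ranges overlapped. Their part in the result was not tested.

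Both 3D cultures had fewer of these transcripts than 2D EpiSCs, a group that both comparisons share. In ESC-derived 3D EpiSCs 19 members were called lower and 0 higher by limma, beside 9.25% and 0.633% of genes, and 0 were higher even at an unadjusted p below 0.05. The median was -0.82 for the members and -0.21 for all genes. Rescaling moved the latter to 0.02 and the share of calls that were higher from 6.4% to 18.5%, and left 15 members lower. In embryo-derived 3D EpiSCs 11 were called lower and 0 higher, beside 7.75% and 1.07%, with 1 higher at an unadjusted p below 0.05 (medians -0.42 and -0.08). Without 2D replicate 1 that number was 6, since Nrp1, Nrp2, Sema3b and Slit1 were then not testable and Sema4a was not called.

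Nrp1, Nrp2, Slit1 and Sema3b passed the filter through the 3 2D EpiSC libraries alone, so that they were lower in 3D EpiSCs, or higher than in EpiLCs, follows in part from the filter and is given as a description. The largest difference for ESC-derived cells was that of Sema6d, at 13.4, 12.4 and 11.3 TPM in 2D EpiSCs and 0.294, 0.352 and 3.21 TPM in ESC-derived 3D EpiSCs (-2.78 ± 0.36, adjusted p = 0.000166). For embryo-derived cells, at 2.83, 4.15 and 5.14 TPM, it was -1.43 ± 0.36 (adjusted p = 0.0106), a call lost with a pseudocount of 0.1. The 2D range lay above both. Sema3e measured 39.4, 37.9 and 56.7 TPM in 2D EpiSCs, 6.32, 5.42 and 7.12 TPM in ESC-derived and 6.64, 8.86 and 8.18 TPM in embryo-derived 3D EpiSCs (-2.63 ± 0.19, adjusted p = 4.25e-06, and -2.34 ± 0.19, adjusted p = 5.08e-06). Nrp1 measured 7.22, 8.17 and 2.56 TPM in 2D EpiSCs, at most 0.432 TPM in ESC-derived and 0.572 to 0.664 TPM in embryo-derived 3D EpiSCs (-2.50 ± 0.29, adjusted p = 7.73e-05, and -2.00 ± 0.29, adjusted p = 0.000328). The third 2D library had less than the other two and still lay above every 3D library. Sema3c, Sema3b and Nrp2 were called lower in both cultures too, and none of them was among the 6 largest differences of either comparison. Slit1 measured 8.93, 9.04 and 5.96 TPM in 2D EpiSCs and at most 1.31 TPM in either 3D culture (-2.50 ± 0.23, adjusted p = 1.88e-05, and -2.41 ± 0.23, adjusted p = 1.65e-05). Robo1 measured 46.2, 45.1 and 27.1 TPM in 2D EpiSCs, 8.61 to 11.8 TPM in ESC-derived and 5.81 to 9.18 TPM in embryo-derived 3D EpiSCs (-1.79 ± 0.30, adjusted p = 0.000861, and -2.16 ± 0.30, adjusted p = 0.000263), with no overlap. Slit3, in contrast, was not called in either comparison, with 24.2, 23.4 and 33.0 TPM in ESC-derived and 35.5, 56.1 and 52.1 TPM in embryo-derived 3D EpiSCs. Efna5 and Epha4, an ephrin and Eph receptor pair that can bind each other, were called lower in both (Efna5 -1.52 ± 0.18 and -1.72 ± 0.18, Epha4 -1.77 ± 0.20 and -1.61 ± 0.20). The 10 trophectoderm markers summed to 593 to 752 TPM in 2D EpiSCs and 204 to 387 TPM in the 3D cultures, and the 13 endoderm markers to 56.9 to 72.6 TPM and 3.21 to 30.9 TPM. Most of the trophectoderm sum in 2D EpiSCs came from the keratins Krt8 and Krt18, at means of 316 and 336 TPM. There Gata3 had a mean of 7.78 TPM, Elf5 0.265 and Cdx2 0.0213. The 10 streak and mesoderm markers summed to 252 to 269.9 TPM in 2D EpiSCs, 125 to 164 TPM in ESC-derived and 313 to 463 TPM in embryo-derived 3D EpiSCs. The part of these markers in the result was not tested.

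Ntn1 was called lower in ESC-derived 3D EpiSCs (-1.64 ± 0.17, adjusted p = 3.45e-05) and differed by 0.11 ± 0.17 (adjusted p = 0.636) in embryo-derived ones. Slit2 differed by -1.51 ± 0.30 (called) and -0.69 ± 0.30, Sema7a by -1.14 ± 0.19 (called) and -0.98 ± 0.19, Efna1 by -1.10 ± 0.25 (called) and -0.78 ± 0.25, and Efnb2 by -1.03 ± 0.18 (called) and -0.65 ± 0.18. Calls of Efna1, Efnb2, Sema7a and Nrp2 in ESC-derived cells were lost after rescaling. Plxnb2, Sema6a, Plxnb1, Plxna1 and Epha2 differed by -0.77, -0.70, -0.44, -0.34 and -0.18 in ESC-derived and by -0.40, 0.08, -0.23, -0.03 and 0.23 in embryo-derived 3D EpiSCs, none of them called.

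**Figure D4:**
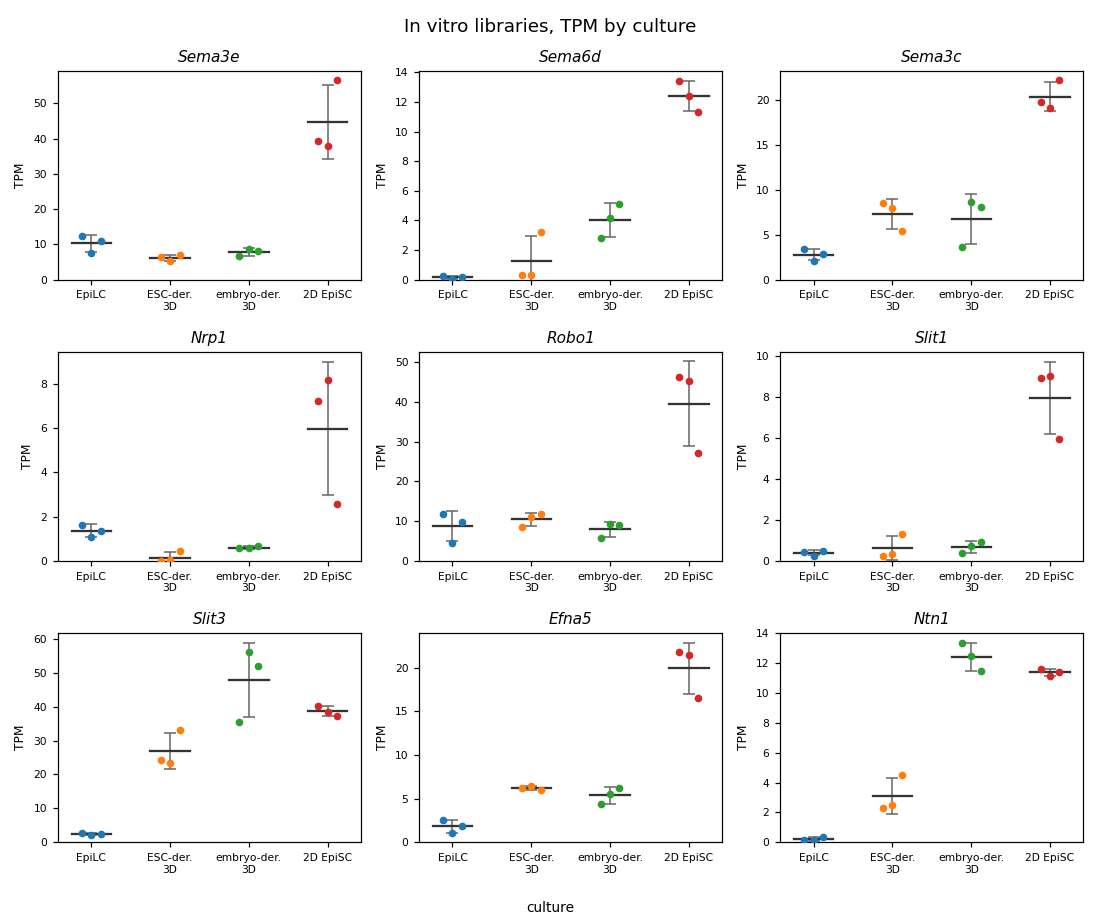
TPM of 9 guidance genes in each in vitro library (points) with the mean (bar) and SD (error bars, n = 3), each panel with its own axis from 0. Sema3e, Sema3c, Nrp1, Robo1, Slit1 and Efna5 are highest in 2D EpiSCs, Slit3 is high in all cultures but EpiLCs, and Ntn1 is low in EpiLCs and ESC-derived 3D EpiSCs.

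The 3D cultures were compared directly. ESC-derived 3D EpiSCs had 1 member higher and 4 lower than embryo-derived ones, beside 1.98% of genes in each direction. Rescaling moved the median of all genes from -0.12 to 0.01 and the share of calls that were higher from 49.9% to 66.1%, and left 1 member higher and 3 lower, with Efna2 lost at -0.88. Ntn1 measured 2.28, 2.49 and 4.51 TPM in ESC-derived and 13.3, 12.5 and 11.5 TPM in embryo-derived 3D EpiSCs (-1.75 ± 0.17, adjusted p = 4.13e-05). Sema4a was the member called higher, at 2.65, 2.36 and 1.19 TPM against 0.203, 0.0279 and 0.220 TPM (1.38 ± 0.18, adjusted p = 0.000479). The groups did not overlap for either gene. The streak and mesoderm markers summed to 125 to 164 TPM in ESC-derived and 313 to 463 TPM in embryo-derived libraries. Trophectoderm markers went the other way, at 258 to 387 and 204 to 231 TPM. So did fibroblast markers (13.6 to 16.8 and 7.24 to 8.45 TPM) and markers of extraembryonic mesoderm and blood (3.98 to 6.98 and 3.49 to 3.58 TPM). The epiblast, endoderm and neural ranges overlapped. The part of these markers in the result was not tested. Of the downstream genes and co-receptors, 29 were testable in vitro. In 2D EpiSCs against EpiLCs 13 were called higher, led by Dpysl3 (3.18 ± 0.22) and Rgma (2.66 ± 0.17), and limma called 0 lower, with 2 at an unadjusted p below 0.05. Against 2D EpiSCs 6 were called lower in ESC-derived 3D EpiSCs, led by Rgma (-2.38 ± 0.17) and Flrt3 (-2.29 ± 0.21), and 8 in embryo-derived ones, led by Srgap3 (-2.35 ± 0.15) and Dpysl3 (-2.14 ± 0.22). Over all tested genes, 15.2% were called higher and 5.14% lower in 2D EpiSCs against EpiLCs. Against 2D EpiSCs, 9.25% were called lower in ESC-derived and 7.75% in embryo-derived 3D EpiSCs.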

How the data were processed

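The deposited values are TPM, which the authors obtained with StringTie on GENCODE VM19 genes after trimming by cutadapt 2.4 and alignment by STAR (mm10). TPM keep no record of depth, so the counting precision is unknown. The table held 54490 lines for 54446 genes, lines of the same identifier were summed, and empty cells on 56 lines were counted as 0. It was matched to GENCODE vM21 for biotypes (54409 genes). The 8 single-cell and bisulfite samples were not analysed here.

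The authors used DESeq2 on raw counts. Here limma 3.58.1 in R 4.3.3 was fitted on log2(TPM + 1), once to the 15 in vivo and once to the 12 in vitro libraries, over 11880 and 11541 autosomal protein-coding genes with TPM above 2 in at least 3 libraries. Tests were two-sided, with Benjamini-Hochberg adjustment within each comparison. On simulated data with 100 genes changed by 1.5 log2 units in each comparison, 95 to 98 were called, with 0 to 3 false calls. The simulated noise was normal and independent between libraries. It left out the near-identical replicates, the floor at 0 and the shift of the median seen in the real data. Those rates therefore hold for the simulated setting only. The labels name no sequencing batch. Alternatives were a pseudocount of 0.1, no filter, sex chromosomes included, a fit on the compared groups alone, a replicate block, TPM rescaled by median-of-ratios factors, an intensity trend and leaving out each replicate. Averaging of near-identical replicates was added after the values were seen, and so was the direct comparison of the 3D cultures, which was run under the same alternatives.

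The genes and lists were chosen with earlier results of these data known. Any member could be named. Full statistics were given for, in each comparison, up to 6 called members in each direction with the largest change and for a fixed set of well-known members where called, and the difference alone for most of the latter where not called. Promoter windows came from RefSeq (GRCm38.p6). Python 3.11.15, pandas 2.3.3, numpy 2.4.6 and matplotlib 3.10.9 were used for the other steps.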

Additional observations from a re-analysis of the deposited data

Results flagged for a closer look

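A limma test of ESC-derived minus embryo-derived 3D EpiSCs on log2(TPM + 1), 3 libraries each, called 5 members. The 2D EpiSCs were of ESC origin only, so this is a difference between the 3D cultures, and whether 3D culture itself acts differently by origin was not tested. The difference was -1.75 for Ntn1 (adjusted p = 4.13e-05), with all 3 ESC-derived libraries below all 3 embryo-derived ones, and the call held under all 14 alternatives. It was -1.35 for Sema6d (adjusted p = 0.0245), where ESC-derived replicate 3 measured 3.21 TPM against 0.294 and 0.352 in the near-identical replicates 1 and 2 and lay within the embryo-derived range of 2.83 to 5.14. That call was lost under 6 of 14 alternatives, with a difference of -0.98 (adjusted p = 0.304) when near-identical replicates were averaged. Plxna2 differed by -1.20 (adjusted p = 0.00898) and Efna2 by -1.01 (adjusted p = 0.000197), lower in all 3 ESC-derived libraries. The Plxna2 call was lost with near-identical replicates averaged (-1.14, adjusted p = 0.114), and the Efna2 call after rescaling (-0.88) and without ESC-derived replicate 2 or embryo-derived replicate 1. Sema4a differed by 1.38 (adjusted p = 0.000479), higher in all 3, and was called under the 13 alternatives that tested it. Groups of 3 libraries were not tested for outliers.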

How the results depend on the processing

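Of the alternative values for single named members, 1613 kept the side of the threshold, 23 passed it newly and 14 no longer passed it. None reversed direction where the member was called in either fit. Any change of sign of a member called in neither fit was counted among the 1613. Between E5.5 and E6.5 the number of members called higher was 1 and became 2 with a pseudocount of 0.1 and 2 after rescaling, through Efna3. Leaving out 1 library at a time gave 1 to 2 there (2 without E5.5 replicate 1 or E6.5 replicate 3), 8 to 10 higher and 10 to 11 lower at E4.5, 19 to 21 higher at E5.5, 14 to 21 higher at E7.5 (14 without E7.5 replicate 1), 15 to 22 lower in ESC-derived 3D EpiSCs, 6 to 13 lower in embryo-derived 3D EpiSCs (6 without 2D EpiSC replicate 1) and 20 to 26 higher in 2D EpiSCs against EpiLCs. Rescaling changed the number of genes called in all by over 1.5 times at E7.5 (1265 to 707 higher, 231 to 386 lower), in ESC-derived 3D EpiSCs against 2D (1068 to 669 lower, 73 to 152 higher) and against embryo-derived ones (229 to 143 lower). A pseudocount of 0.1 did so at E6.5 (85 to 136 higher, 57 to 126 lower), E7.5 (231 to 354 lower), in ESC-derived 3D EpiSCs against 2D (73 to 129 higher) and between the 3D cultures (228 to 374 higher, 229 to 345 lower). Between the 3D cultures, 100 genes were lower with near-identical replicates averaged, 153 without ESC-derived replicate 2 and 427 without ESC-derived replicate 3. Members tested and called in every alternative were 16 of 20 at E4.5, 19 of 23 at E5.5, 1 of 1 at E6.5, 13 of 23 at E7.5, 10 of 19 and 5 of 11 in the 3D cultures and 19 of 23 in 2D EpiSCs against EpiLCs. A further 1 at E5.5, 4 at E7.5, 3 and 4 in the 3D cultures and 3 against EpiLCs kept the call where tested but missed the filter in some alternatives. With near-identical replicates averaged, Efna1, Slit2 and Sema4g were no longer called in ESC-derived and Sema6d and Sema4a in embryo-derived 3D EpiSCs. Replicate numbers did not pair the samples (mean correlation of deviations of same-numbered libraries -0.0138 in vivo and -0.0291 in vitro), and with a replicate block the members called higher and lower were 9 and 11 at E4.5, 20 and 3 at E5.5, 1 and 0 at E6.5 and 21 and 2 at E7.5. TPM hold no depth, so no limit of detection could be given.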
